A study of Saccharomyces cerevisiae with 18 samples.

Results

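The genes described here are the autophagy genes and the main hydrolases of the vacuole in budding yeast, 39 of the 6837 identifiers in the deposited tables. They were chosen by name, as the 32 ATG genes with numbers from ATG1 to ATG40 that the tables list and the hydrolase genes PEP4, PRB1, PRC1, LAP4, CPS1, APE3 and AMS1, a rule that uses no measured value. Messenger RNA had been sequenced in 18 libraries of strain BY4742, a haploid laboratory strain of Saccharomyces cerevisiae that lacks HIS3, LEU2, LYS2 and URA3. The 6 groups, with 3 libraries each, were a set2 deletion (set2Δ) at day 4 and day 1, a bre1 deletion (bre1Δ) at day 4 and day 1, and wild type (WT) at day 4 and day 1. The series concerns chronological aging, in which yeast that no longer divides gradually loses viability. All cultures had grown in YPD, a rich glucose medium, and received no treatment. Set2 methylates histone H3 and Bre1 attaches ubiquitin to histone H2B, and the title of the series links Bre1 to the degradation of Set2 protein during aging.

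Autophagy carries cytoplasm and organelles into the vacuole, the lysosome of yeast. The Atg1 kinase complex starts it, the Atg9 and lipid-binding proteins build a double membrane, and a ubiquitin-like pathway attaches Atg8 to the lipid of that membrane. Receptors tie chosen cargo to Atg8, and after fusion with the vacuole the proteases activated by Pep4 degrade what was delivered. In stationary cultures this recycling is known to be needed for survival.

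The 3 set2Δ libraries of day 4 held 8038470 to 15752126 counts and those of day 1 held 16083744 to 18527701. The day 4 libraries of bre1Δ held 12500920 to 29514490 counts and its day 1 libraries 14117059 to 23335510. For WT the day 4 libraries held 23158487 to 25763314 counts and the day 1 libraries 14405784 to 21558268. SET2 had 3 to 9 counts in the 6 set2Δ libraries, against 253 to 1308 in the other 12. BRE1 had 0 to 1 counts in the 6 bre1Δ libraries, against 943 to 2757 in the other 12. The 39 genes together took 1.04% to 1.51% of the counts of a library. Of these genes, 38 passed the filter on low counts, 31 ATG genes and all 7 hydrolases. ATG16 (YMR159C, chromosome XIII, 574476 to 574928, reverse strand), whose product completes the complex that attaches Atg8 to lipid, had 0 to 7 counts in every library and was not tested. The tables also list YMR158W-B, to which the R64 reference used here assigns no gene, with 0 to 7 counts.

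Levels between genes were compared per length, as the median FPKM of a gene over the 18 libraries. The 31 ATG genes with counts had 29.5 to 1215 FPKM with a median of 64.4, and the 7 hydrolases had 156 to 1567 FPKM with a median of 674. All genes of the table with a median above 0 had a median of 43.7 FPKM. ATG8, which encodes the ubiquitin-like protein that coats the membrane, ranked at position 125 of all genes, above every other ATG gene. ATG2 had the lowest FPKM of the ATG genes tested, at 29.5. APE3, the gene of aminopeptidase Y, had the highest level of the hydrolases and ranked 92, and LAP4 had the lowest and ranked 1134. Across groups, levels are given in CPM after TMM scaling. The highest group mean of an ATG gene was 1.32 to 5.55 times its lowest, and that of a hydrolase gene 2.46 to 5.06 times its lowest. Of the 31 ATG genes, 13 had their highest mean in set2Δ at day 4, and 14 had their lowest in bre1Δ at day 4. The same counts were not made over all genes tested, so whether they are unusual cannot be told.

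Day 4 was first set against day 1 in each strain. In set2Δ, 22 of 31 ATG genes rose and 2 fell, beside 34.3% of all 6320 genes tested that rose and 37.3% that fell. The median log2 fold change was 0.36 over the ATG genes and -0.03 over all genes tested. In bre1Δ, 7 ATG genes rose and 20 fell, beside 37.9% of all genes that rose and 38.4% that fell, with a median of -0.30 over the ATG genes and -0.02 over all genes. In WT, 12 rose and 15 fell, beside 37.2% and 40.5% of all genes, with medians of -0.20 and -0.02. Calls were made with edgeR's quasi-likelihood test at a Benjamini-Hochberg adjusted p under 0.05, and a fold change is a log2 value ± SE from its fit, with 3 libraries per group. With upper-quartile scaling, 18 ATG genes rose and 5 fell in set2Δ, beside 1668 of all genes that rose and 3029 that fell. The median of all genes was then -0.17. These are bulk samples, in which fewer cells with an RNA and less of it per cell cannot be told apart. The labels do not say whether replicates were separate cultures, so p-values measure the spread between these samples, which may be technical.

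Of the 7 hydrolase genes, PRB1, CPS1 and AMS1 rose and 4 fell at day 4 in set2Δ, with a median log2 fold change of -0.39. In bre1Δ, PEP4 and PRC1 rose, 4 fell and PRB1 did not pass the test, with a median of -0.24. In WT all 7 fell, with a median log2 fold change of -0.89. The shares of all genes tested that rose and fell were 34.3% and 37.3% in set2Δ. They were 37.9% and 38.4% in bre1Δ, and 37.2% and 40.5% in WT. The summed level of the hydrolases was 4606 to 4941 CPM in set2Δ at day 4 against 5804 to 6085 at day 1, 8787 to 9714 CPM in bre1Δ at day 4 against 9533 to 10170.4 at day 1, and 6380 to 6620 CPM in WT at day 4 against 11204 to 12049 at day 1. The summed level of the ATG genes was 5590.5 to 5648 CPM in set2Δ at day 4 against 3592 to 3740 at day 1, 3221 to 3267 CPM in bre1Δ at day 4 against 4034 to 4185 at day 1, and 5317 to 5555 CPM in WT at day 4 against 4030.4 to 4468 at day 1. The 3 libraries of day 4 lay on one side of the 3 of day 1 in all of these sums except the hydrolases of bre1Δ, where the ranges overlapped. Genes with many counts weigh most in such sums. In WT the ATG sum was higher at day 4 although 12 ATG genes rose and 15 fell. There the mean of ATG8 was 954 CPM at day 4 against 474 at day 1, and that of ATG26 was 486 against 288.

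**Figure D1:**
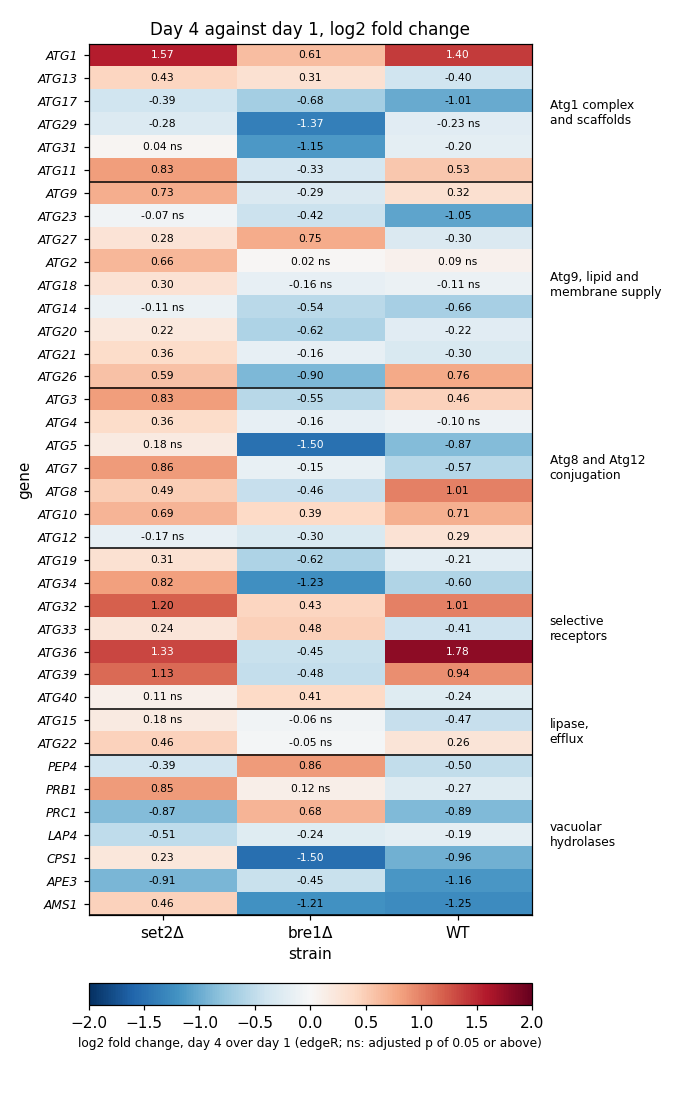
Log2 fold change of day 4 over day 1 for the 38 genes tested, in columns for set2Δ, bre1Δ and WT and in rows grouped by role. Colour runs from blue (lower at day 4) to red (higher), and "ns" marks values that did not pass the adjusted p threshold. The set2Δ column is mostly red among the ATG genes, the bre1Δ column mostly blue, and the WT column blue in all 7 hydrolases.

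Of the genes that start autophagy, the kinase gene ATG1 (YGL180W, chromosome VII, 160065 to 162758, forward strand) rose in all 3 strains. It had 239, 239 and 247 CPM in set2Δ at day 4, against 80.8, 80.4 and 82.7 CPM at day 1. In bre1Δ it had 90.0, 83.4 and 93.4 CPM at day 4, against 63.2, 56.7 and 55.5 CPM at day 1. In WT it had 146, 167 and 160.2 CPM at day 4, against 67.0, 53.4 and 59.8 CPM at day 1. Every day 4 library lay above every day 1 library of its strain. The log2 fold change was 1.57 ± 0.069 in set2Δ (edgeR, adjusted p = 3.92e-14), 0.61 ± 0.071 in bre1Δ (edgeR, adjusted p = 1.11e-07) and 1.40 ± 0.071 in WT (edgeR, adjusted p = 1.84e-13). The rise in bre1Δ was smaller than that in set2Δ (bre1Δ minus set2Δ, -0.96 ± 0.099; edgeR, adjusted p = 2.2e-08) and smaller than that in WT (bre1Δ minus WT, -0.79 ± 0.10; edgeR, adjusted p = 3.94e-07). The test of the difference between the rises in set2Δ and WT did not pass the threshold (set2Δ minus WT, 0.17 ± 0.098; edgeR, adjusted p = 0.117). Without the second WT library of day 1 it was 0.26 and passed (edgeR, adjusted p = 0.0171).

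ATG13 encodes the regulatory subunit of the Atg1 kinase. It had 124, 113 and 118 CPM in set2Δ at day 4 and 91.5, 88.2 and 83.6 at day 1, 122, 125 and 119 CPM in bre1Δ at day 4 and 99.998, 95.5 and 99.2 at day 1, and 86.7, 93.0 and 96.6 CPM in WT at day 4 and 119, 120.1 and 126 at day 1. It rose in both deletion strains and fell in WT. ATG17, ATG29 and ATG31 encode the scaffold of bulk autophagy. ATG17 fell in all 3 strains, and its fold change was -1.01 ± 0.098 in WT (edgeR, adjusted p = 6.87e-09) and -0.39 ± 0.10 in set2Δ (edgeR, adjusted p = 0.00158). It had 39.4, 44.1 and 51.5 CPM in set2Δ at day 4 against 53.4, 59.0 and 66.1 at day 1, and 29.3, 38.3 and 37.3 CPM in WT at day 4 against 72.0, 71.5 and 68.7 at day 1. In bre1Δ it had 43.0, 48.3 and 47.3 CPM at day 4, against 79.8, 69.5 and 72.9 at day 1. The day 4 libraries were the lower ones throughout.

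ATG29 had 19.3, 21.1 and 18.02 CPM in bre1Δ at day 4, against 59.3, 46.6 and 44.6 CPM at day 1. Its fold change there was -1.37 ± 0.11 (edgeR, adjusted p = 6.27e-10), with no overlap between the days. It also fell in set2Δ and did not pass the test in WT, where the days overlapped. ATG29 overlaps the neighbouring SET6 by 24 bases, and the strand setting of the authors' counting is not given in the sources used here, so reads of genes that overlap or lie antisense cannot be told apart. ATG31 had 23.6, 32.8 and 25.1 CPM in bre1Δ at day 4 against 63.7, 54.9 and 61.7 at day 1, while in set2Δ it had 70.2, 69.5 and 69.6 CPM at day 4 and 69.8, 65.1 and 67.9 at day 1. It fell in bre1Δ and in WT, and its set2Δ libraries overlapped between the days. ATG11, the scaffold gene of selective autophagy, had 249.9, 243 and 250.2 CPM in set2Δ at day 4 against 142, 131 and 144 at day 1, and 183, 192 and 181 CPM in bre1Δ at day 4 against 238, 231 and 230.4 at day 1. It rose in set2Δ and in WT and fell in bre1Δ, with no overlap between the days in either deletion strain.

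Of the 9 genes tested whose products supply and shape the membrane, 7 rose and 0 fell in set2Δ, 1 rose and 6 fell in bre1Δ, and 2 rose and 5 fell in WT. With upper-quartile scaling, 4 of them rose and 2 fell in set2Δ, beside 1668 of all 6320 genes that rose and 3029 that fell. The shares of all genes tested that rose and fell with TMM scaling were 34.3% and 37.3% in set2Δ. They were 37.9% and 38.4% in bre1Δ, and 37.2% and 40.5% in WT. ATG9 encodes the membrane protein whose vesicles seed the double membrane. It had 270.0, 284 and 275 CPM in set2Δ at day 4 against 163, 169 and 167 at day 1, 174, 186 and 166 CPM in bre1Δ at day 4 against 229, 218 and 198 at day 1, and 198, 209 and 216 CPM in WT at day 4 against 183, 146 and 172 at day 1. A rise was called in set2Δ and WT and a fall in bre1Δ. ATG27, which encodes a membrane protein that takes part in the traffic of Atg9, had 89.4, 86.2 and 91.6 CPM in bre1Δ at day 4, against 50.4, 53.9 and 54.8 CPM at day 1. It was the only gene of this group that rose in bre1Δ, by 0.75 ± 0.065 (edgeR, adjusted p = 1.24e-09), while in WT it fell and had 53.7, 60.6 and 52.1 CPM at day 4 and 64.1, 66.5 and 73.6 at day 1. The bre1Δ change exceeded that of WT by 1.05 ± 0.092 (edgeR, adjusted p = 1.74e-09) and that of set2Δ by 0.47 ± 0.094 (edgeR, adjusted p = 0.000145). ATG23, whose product also works with Atg9, fell in WT, with a fold change of -1.05 ± 0.089 (edgeR, adjusted p = 8.85e-10). Its WT libraries had 20.8, 28.3 and 26.7 CPM at day 4 and 48.4, 51.1 and 57.3 at day 1, without overlap.

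ATG2 encodes a lipid transfer protein and ATG18 its partner, which binds a phosphoinositide. ATG2 had 296, 291 and 285 CPM in set2Δ at day 4, against 183, 183 and 185 CPM at day 1, and rose. Its libraries overlapped between the days in bre1Δ and in WT, at 119 to 137 CPM in bre1Δ and 141 to 172 CPM in WT. ATG18 had 54.2, 45.5 and 45.4 CPM in set2Δ at day 4 against 40.9, 39.5 and 36.7 at day 1, and rose there, while it did not pass the test in bre1Δ or WT. ATG14, of the lipid kinase complex, had 42.2, 43.3 and 42.4 CPM in bre1Δ at day 4 against 63.3, 59.5 and 62.5 at day 1, and 30.2, 30.6 and 30.7 CPM in WT at day 4 against 50.6, 49.7 and 44.6 at day 1. It fell in both and did not pass the test in set2Δ. ATG20, which encodes a sorting nexin, and ATG21, which encodes a phosphoinositide-binding protein, rose in set2Δ and fell in bre1Δ and WT, at 151 to 252 CPM and 81.6 to 113 CPM over all libraries. The bre1Δ libraries of ATG21 overlapped between the days although the test was passed. ATG26 encodes a sterol glucosyltransferase, which yeast autophagy does not need. It had 485, 447 and 458 CPM in set2Δ at day 4 against 312, 300.3 and 309 at day 1, 240.5, 234 and 234 CPM in bre1Δ at day 4 against 447, 434 and 438 at day 1, and 473, 501 and 485 CPM in WT at day 4 against 306, 260.2 and 298 at day 1. It rose in set2Δ and WT and fell in bre1Δ, and the bre1Δ change minus that of WT was -1.65 ± 0.078 (edgeR, adjusted p = 8.22e-14).

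Of the 7 genes tested in the Atg8 and Atg12 conjugation pathways, 5 rose and 0 fell in set2Δ, 1 rose and 6 fell in bre1Δ, and 4 rose and 2 fell in WT. Among all genes tested, 34.3% rose and 37.3% fell in set2Δ, 37.9% and 38.4% in bre1Δ, and 37.2% and 40.5% in WT. With upper-quartile scaling, 5 conjugation genes rose and 1 fell in set2Δ, and 3 rose and 3 fell in WT. Of all 6320 genes, 1668 then rose and 3029 fell in set2Δ, and 2004 rose and 3012 fell in WT. ATG8 (YBL078C, chromosome II, 80378 to 80731, reverse strand) had 533, 525 and 519.8 CPM in set2Δ at day 4, against 373, 357 and 391 CPM at day 1. In bre1Δ it had 287, 273 and 288 CPM at day 4, against 401, 404 and 363 CPM at day 1. In WT it had 925, 962 and 976 CPM at day 4, against 520.4, 463 and 438 CPM at day 1. The days did not overlap in any strain, and bre1Δ was the strain whose day 4 libraries were the lower ones. ATG8 rose by 0.49 ± 0.061 in set2Δ (edgeR, adjusted p = 3.45e-07) and by 1.01 ± 0.061 in WT (edgeR, adjusted p = 3.32e-12), and its fold change in bre1Δ was -0.46 ± 0.061 (edgeR, adjusted p = 6.94e-07). The set2Δ change minus that of WT was -0.52 ± 0.086 (edgeR, adjusted p = 1.65e-05), the bre1Δ change minus that of WT was -1.47 ± 0.086 (edgeR, adjusted p = 2.67e-12), and the bre1Δ change minus that of set2Δ was -0.96 ± 0.086 (edgeR, adjusted p = 3.37e-09).

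ATG7 encodes the activating enzyme of both conjugation pathways. It had 98.2, 102 and 105 CPM in set2Δ at day 4 against 54.7, 57.1 and 56.8 at day 1, and rose by 0.86 ± 0.060 (edgeR, adjusted p = 6.08e-11). In WT it fell, with 34.7, 30.1 and 31.3 CPM at day 4 against 50.1, 44.6 and 47.9 at day 1, and the difference between these day effects was 1.42 ± 0.087 (edgeR, adjusted p = 6.87e-12). In bre1Δ it fell, with 52.0, 50.7 and 54.5 CPM at day 4 against 61.6, 57.9 and 55.8 at day 1. ATG3, which encodes the enzyme that hands Atg8 to lipid, had 186, 201 and 211 CPM in set2Δ at day 4 against 113, 109 and 115 at day 1, and 73.6, 75.5 and 69.4 CPM in bre1Δ at day 4 against 108, 106 and 105 at day 1. ATG3 rose in set2Δ and WT and fell in bre1Δ. ATG4, the protease gene that processes Atg8, had 137, 133 and 137 CPM in set2Δ at day 4 against 107, 102 and 108 at day 1. It rose there, fell in bre1Δ and overlapped between the days in WT.

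ATG5, whose product is joined to Atg12, had 70.1, 63.9 and 71.1 CPM in bre1Δ at day 4, against 194, 175 and 212 CPM at day 1. Its fold change there was -1.50 ± 0.079 (edgeR, adjusted p = 4.94e-13), the day 4 libraries all lying below those of day 1. In WT it fell as well, with 58.4, 52.5 and 54.3 CPM at day 4 and 109.6, 89.2 and 103 at day 1, and in set2Δ it had 52.6, 56.1 and 51.2 CPM at day 4 and 45.2, 44.8 and 51.6 at day 1, with overlap. ATG10, the gene of the enzyme that joins Atg12 to Atg5, rose in all 3 strains, within 6.64 to 21.6 CPM over all libraries. ATG12 had 36.1, 32.3 and 32.4 CPM in set2Δ at day 4 and 34.6, 39.0 and 38.6 at day 1, with overlap, and 41.6, 48.2 and 50.0 CPM in WT at day 4 against 41.5, 36.8 and 36.1 at day 1. It rose in WT, and the set2Δ change minus that of WT was -0.46 ± 0.12 (edgeR, adjusted p = 0.0013). In bre1Δ it fell.

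**Figure D2:**
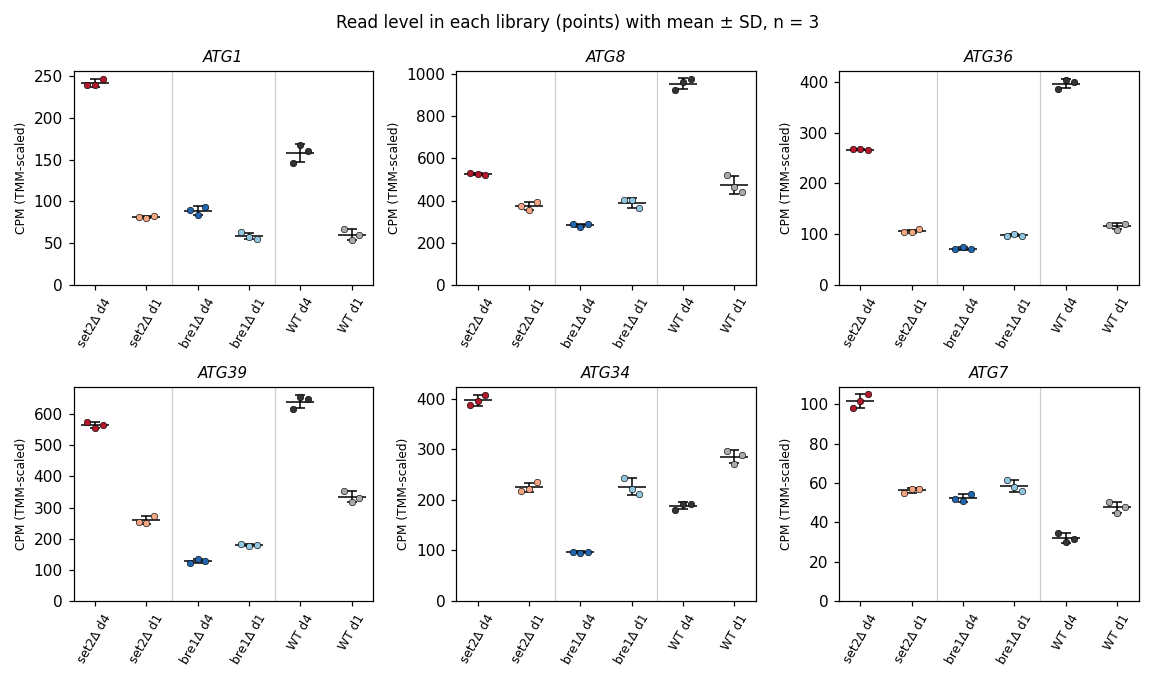
TMM-scaled CPM of ATG1, ATG8, ATG36, ATG39, ATG34 and ATG7 in each library, for set2Δ, bre1Δ and WT with day 4 left of day 1 in each strain; points are libraries, bars mean ± SD (n = 3), and each axis starts at 0. ATG1 was higher at day 4 in each strain, while ATG8, ATG36, ATG39, ATG34 and ATG7 were higher at day 4 in set2Δ and lower at day 4 in bre1Δ.

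Of the 7 genes that serve selective autophagy, most of them cargo receptors, 6 rose and 0 fell in set2Δ, 3 rose and 4 fell in bre1Δ, and 3 rose and 4 fell in WT. Among all genes tested, 34.3% rose and 37.3% fell in set2Δ, 37.9% and 38.4% in bre1Δ, and 37.2% and 40.5% in WT. The splits in bre1Δ and WT were near these shares. ATG36 (YJL185C, chromosome X, 82095 to 82976, reverse strand), the receptor gene for peroxisomes, had 267, 268 and 266 CPM in set2Δ at day 4, against 105, 104 and 109.6 CPM at day 1. The bre1Δ libraries had 69.8, 74.2 and 70.5 CPM at day 4, against 97.3, 99.6 and 95.5 CPM at day 1. For WT the values were 387, 403 and 400.4 CPM at day 4, against 118, 108 and 119 CPM at day 1. The days were apart in every strain, and the WT day 4 libraries were the highest of all. The fold change was 1.33 ± 0.046 in set2Δ (edgeR, adjusted p = 9.71e-16) and 1.78 ± 0.046 in WT (edgeR, adjusted p = 3.53e-18), and ATG36 fell in bre1Δ. The bre1Δ change minus that of WT was -2.23 ± 0.066 (edgeR, adjusted p = 7.68e-17), and minus that of set2Δ it was -1.78 ± 0.066 (edgeR, adjusted p = 4.91e-15). The set2Δ change minus that of WT was -0.45 ± 0.064 (edgeR, adjusted p = 1.94e-06).

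ATG39 encodes the receptor for the nuclear envelope. It had 574, 556 and 565 CPM in set2Δ at day 4 against 254, 249 and 274 at day 1, 122, 135 and 129 CPM in bre1Δ at day 4 against 183, 177 and 179 at day 1, and 618, 654 and 649 CPM in WT at day 4 against 354, 318 and 332 at day 1. ATG39 rose in set2Δ by 1.13 ± 0.053 (edgeR, adjusted p = 9.36e-14) and in WT by 0.94 ± 0.052 (edgeR, adjusted p = 8.88e-13), and it fell in bre1Δ. ATG40, the receptor gene for the peripheral endoplasmic reticulum, had 119, 121 and 109 CPM in bre1Δ at day 4 against 86.0, 85.5 and 91.6 at day 1, and 82.5, 78.5 and 83.1 CPM in WT at day 4 against 91.7, 96.5 and 101 at day 1. It rose in bre1Δ, fell in WT and overlapped between the days in set2Δ. The receptors of the nuclear envelope and of the peripheral network carried opposite signs in bre1Δ.

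ATG32, the receptor gene for mitochondria, rose in all 3 strains. It had 254, 286 and 275 CPM in set2Δ at day 4 against 113, 119.6 and 124 at day 1, 123, 125 and 122 CPM in bre1Δ at day 4 against 91.6, 89.8 and 92.5 at day 1, and 243, 254 and 254 CPM in WT at day 4 against 119, 122 and 132 at day 1. The fold change was 1.20 ± 0.051 in set2Δ (edgeR, adjusted p = 2.43e-14) and 1.01 ± 0.051 in WT (edgeR, adjusted p = 1.73e-13). ATG33, which encodes a mitochondrial protein with a role in the removal of mitochondria, had 315, 302 and 314 CPM in bre1Δ at day 4 against 214, 231 and 221 at day 1, and rose by 0.48 ± 0.057 (edgeR, adjusted p = 1.41e-07). It also rose in set2Δ and fell in WT, where it had 214, 217 and 214 CPM at day 4 and 289, 261 and 307 at day 1.

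ATG19 and ATG34 encode receptors that bring hydrolases, α-mannosidase among them, from the cytosol to the vacuole. ATG34 (YOL083W, chromosome XV, 165714 to 166952, forward strand) had 387, 395 and 407 CPM in set2Δ at day 4, against 217, 222 and 235 CPM at day 1. The bre1Δ libraries had 97.8, 94.8 and 97.0 CPM at day 4, against 244, 222 and 213 CPM at day 1. For WT the values were 181, 193 and 193 CPM at day 4, against 297, 271 and 289 CPM at day 1. Day 4 was the higher day in set2Δ and the lower day in bre1Δ and WT, without overlap. The fold change in bre1Δ was -1.23 ± 0.055 (edgeR, adjusted p = 4.71e-14). The set2Δ change exceeded that of WT by 1.42 ± 0.076 (edgeR, adjusted p = 8.68e-13), and the bre1Δ change minus that of set2Δ was -2.05 ± 0.077 (edgeR, adjusted p = 6.16e-15). ATG19 had 177, 170.0 and 165 CPM in set2Δ at day 4 against 142, 134 and 136 at day 1, and 127, 135 and 128 CPM in bre1Δ at day 4 against 199, 190.3 and 211 at day 1. It too rose in set2Δ and fell in bre1Δ and WT.

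ATG15 and ATG22 act in the vacuole, as the lipase that opens the delivered vesicles and as an exporter of amino acids. ATG15 had 82.6, 84.8 and 77.7 CPM in WT at day 4 against 113, 97.0 and 130.2 at day 1, and fell. It did not pass the test in either deletion strain, at 100.4 to 134 CPM in set2Δ and 66.1 to 78.5 CPM in bre1Δ. ATG22 had 135, 129 and 129 CPM in set2Δ at day 4 against 90.8, 95.2 and 99.3 at day 1, and 109, 112 and 109 CPM in WT at day 4 against 88.8, 92.2 and 95.2 at day 1. It rose in both, and its bre1Δ libraries overlapped at 80.1 to 88.4 CPM.

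Among the hydrolases, PEP4 (YPL154C, chromosome XVI, 259714 to 260931, reverse strand) encodes proteinase A, which activates the other vacuolar proteases. It had 683, 664 and 622 CPM in set2Δ at day 4, against 871, 863 and 839 CPM at day 1. In bre1Δ it had 2054, 1921 and 2064 CPM at day 4, against 1058, 1164 and 1113 CPM at day 1. In WT it had 1118, 1063 and 1073 CPM at day 4, against 1458, 1489 and 1650.3 CPM at day 1. The bre1Δ day 4 libraries were the highest of all, and bre1Δ was the strain in which day 4 was the higher day. The fold change was -0.39 ± 0.060 in set2Δ (edgeR, adjusted p = 8.23e-06), 0.86 ± 0.060 in bre1Δ (edgeR, adjusted p = 4.53e-11) and -0.50 ± 0.060 in WT (edgeR, adjusted p = 1.85e-07). The bre1Δ change exceeded that of set2Δ by 1.24 ± 0.085 (edgeR, adjusted p = 4.95e-11) and that of WT by 1.36 ± 0.085 (edgeR, adjusted p = 8.21e-12). The test of the difference between the set2Δ and WT changes did not pass the threshold (set2Δ minus WT, 0.11 ± 0.085; edgeR, adjusted p = 0.239).

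PRC1, the gene of carboxypeptidase Y, had 821, 769 and 721 CPM in set2Δ at day 4, against 1455, 1381 and 1385 CPM at day 1. The bre1Δ libraries had 1533, 1351 and 1566 CPM at day 4, against 860.2, 991 and 932 CPM at day 1. For WT the values were 1066, 1027 and 987 CPM at day 4, against 1815, 1868 and 2007 CPM at day 1. As for PEP4, day 4 was the higher day in bre1Δ and the lower day in set2Δ and WT. The fold change was -0.87 ± 0.070 in set2Δ (edgeR, adjusted p = 5.7e-10) and 0.68 ± 0.070 in bre1Δ (edgeR, adjusted p = 1.81e-08), and the bre1Δ change exceeded that of set2Δ by 1.55 ± 0.099 (edgeR, adjusted p = 1.64e-11) and that of WT by 1.56 ± 0.099 (edgeR, adjusted p = 9.1e-12).

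PRB1, the gene of proteinase B, had 1234, 1153 and 1131 CPM in set2Δ at day 4 against 673, 626 and 652 at day 1, and rose by 0.85 ± 0.073 (edgeR, adjusted p = 1.45e-09). In bre1Δ it had 2515, 2153 and 2572 CPM at day 4 and 2139, 2210.4 and 2294 at day 1, with overlap, and did not pass the test (0.12 ± 0.072; edgeR, adjusted p = 0.124). Without the second library of bre1Δ at day 4, the lowest of its group, the fold change was 0.20 (edgeR, adjusted p = 0.0144). In WT it had 1369, 1342 and 1296 CPM at day 4 against 1517, 1525 and 1773 at day 1, a fold change of -0.27 ± 0.072 (edgeR, adjusted p = 0.0023). The set2Δ change exceeded that of WT by 1.12 ± 0.10 (edgeR, adjusted p = 3.88e-09), the bre1Δ change exceeded that of WT by 0.39 ± 0.10 (edgeR, adjusted p = 0.00172), and the bre1Δ change minus that of set2Δ was -0.73 ± 0.10 (edgeR, adjusted p = 2.07e-06).

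CPS1, the gene of carboxypeptidase S, had 215, 202 and 185 CPM in set2Δ at day 4 against 177, 163 and 172 at day 1, 312, 284 and 318 CPM in bre1Δ at day 4 against 861, 866 and 866 at day 1, and 352, 359 and 341 CPM in WT at day 4 against 706, 591 and 748 at day 1. It rose in set2Δ and fell in the other strains, with a fold change of -1.50 ± 0.073 in bre1Δ (edgeR, adjusted p = 1.32e-13) and -0.96 ± 0.072 in WT (edgeR, adjusted p = 1.09e-10). The bre1Δ change minus that of set2Δ was -1.74 ± 0.10 (edgeR, adjusted p = 4.97e-12). AMS1, the gene of α-mannosidase, had 699.7, 740.0 and 749 CPM in set2Δ at day 4 against 517, 509.7 and 565 at day 1, 479, 463 and 481 CPM in bre1Δ at day 4 against 1133, 1087 and 1079 at day 1, and 428, 448 and 442 CPM in WT at day 4 against 1091, 943 and 1112 at day 1. Its fold change was -1.21 ± 0.062 in bre1Δ (edgeR, adjusted p = 3.05e-13) and -1.25 ± 0.062 in WT (edgeR, adjusted p = 1.25e-13). It rose in set2Δ, a change that exceeded that of WT by 1.71 ± 0.087 (edgeR, adjusted p = 3.79e-13).

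APE3 and LAP4 encode aminopeptidases and fell in all 3 strains. APE3 had 1196, 1163 and 1112 CPM in set2Δ at day 4 against 2265, 2185 and 2068 at day 1, 2471, 2393 and 2501 CPM in bre1Δ at day 4 against 3459.8, 3592 and 2982 at day 1, and 1996, 1986 and 1961 CPM in WT at day 4 against 4437, 4465 and 4389 at day 1. The fold change was -0.91 ± 0.066 in set2Δ (edgeR, adjusted p = 1.19e-10) and -1.16 ± 0.066 in WT (edgeR, adjusted p = 1.37e-12). LAP4, whose product aminopeptidase I is the main cargo of Atg19, had 93.0, 83.1 and 84.9 CPM in set2Δ at day 4 against 126, 122 and 123 at day 1, a fold change of -0.51 ± 0.069 (edgeR, adjusted p = 1.03e-06). In bre1Δ it had 216, 221 and 212 CPM at day 4 and 243, 259 and 266 at day 1, without overlap. In WT it had 292, 291 and 279 CPM at day 4 and 292, 324 and 370.3 at day 1, and the days overlapped although the test was passed.

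Next the day effects of the deletion strains, which share no library, were set against each other. Of the 38 genes tested, 15 rose in set2Δ and fell in bre1Δ, which were ATG3, ATG4, ATG7, ATG8, ATG9, ATG11, ATG19, ATG20, ATG21, ATG26, ATG34, ATG36, ATG39, CPS1 and AMS1. Of all 6320 genes tested, 11.7% rose in set2Δ and fell in bre1Δ. ATG20 and CPS1 did not pass the test in set2Δ with library size only or with upper-quartile scaling. For all 15 the bre1Δ change was lower than the set2Δ change in the test of the difference. PEP4 and PRC1 moved the other way, as did 12.3% of all genes. ATG1, ATG10, ATG13, ATG27, ATG32 and ATG33 rose in both strains, beside 15.5% of all genes, and ATG17, ATG29, LAP4 and APE3 fell in both, beside 17.0%. Over the 38 genes the bre1Δ change was higher than the set2Δ change in 7 and lower in 26, beside 36.7% of all genes tested that were higher and 35.1% that were lower (71.8% in either direction). The median difference was -0.69 on the log2 scale, and 0.01 over all genes. Against WT, the change over time was higher in set2Δ in 27 genes and lower in 4, beside 34.8% and 37.9% of all genes (72.7% in either direction), with a median difference of 0.41, and -0.05 over all genes. The change was higher in bre1Δ than in WT in 12 genes and lower in 18, beside 40.0% and 36.9% of all genes (76.9% in either direction), with medians of -0.19 and 0.04. The set2Δ and bre1Δ differences from WT use the same WT libraries.

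**Figure D3:**
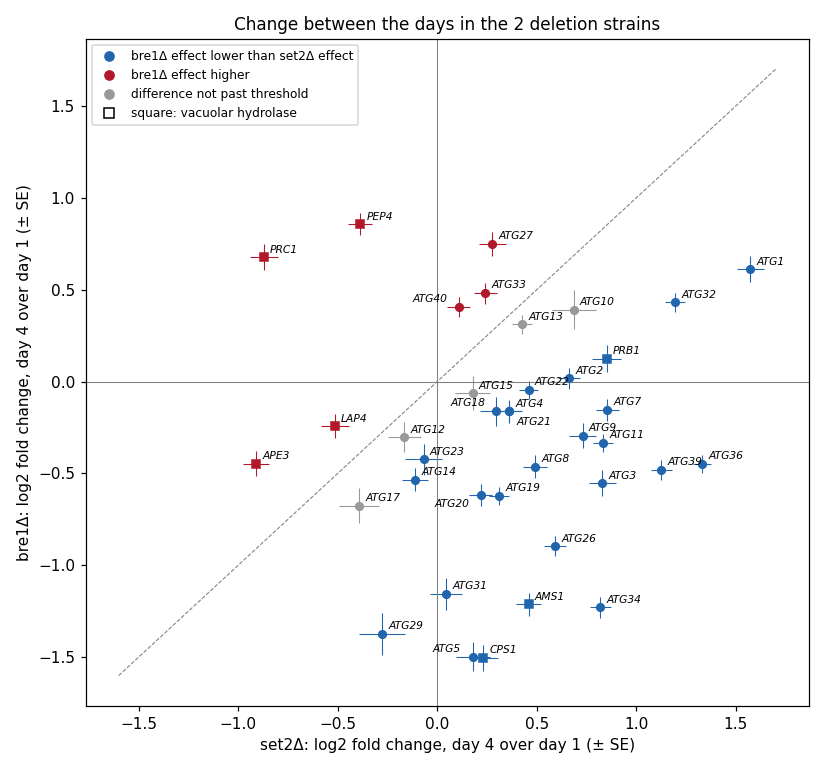
Log2 fold change of day 4 over day 1 in bre1Δ (vertical axis) and in set2Δ (horizontal axis) for the 38 genes tested, with SE bars from the fit; colour gives the test of the difference between both day effects, squares are hydrolases and the dashed line marks equal change. The lower right of the plot holds 15 genes past the threshold in both strains (11.7% of all genes tested did the same), and PEP4 and PRC1 stand in the upper left (12.3% of all genes).

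The promoters of ATG8 and of 4 of the genes with the widest differences between the day effects of bre1Δ and set2Δ are shown to set their letters beside these changes. Each is the 300 bases before the start codon, written 5′ to 3′ on the strand of the gene, from the RefSeq R64 reference, the assembly of the sacCer3 build. Capitals mark matches, on either strand, to 5 short motifs: AGGGG (bound by Msn2 and Msn4), AGGGAT (the core of the element of Gis1 and Rph1), GCCGCC (the core of the element of Ume6), GATAAG (bound by Gln3 and Gat1) and TGACTC (bound by Gcn4).
ATG8, chrII:80732-81031, reverse strand: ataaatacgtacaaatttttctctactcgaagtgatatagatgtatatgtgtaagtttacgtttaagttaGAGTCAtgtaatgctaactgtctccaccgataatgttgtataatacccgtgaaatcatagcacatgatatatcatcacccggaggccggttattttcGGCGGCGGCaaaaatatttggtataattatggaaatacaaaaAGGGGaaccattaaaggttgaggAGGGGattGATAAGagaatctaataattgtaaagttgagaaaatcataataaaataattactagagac
ATG34, chrXV:165414-165713, forward strand: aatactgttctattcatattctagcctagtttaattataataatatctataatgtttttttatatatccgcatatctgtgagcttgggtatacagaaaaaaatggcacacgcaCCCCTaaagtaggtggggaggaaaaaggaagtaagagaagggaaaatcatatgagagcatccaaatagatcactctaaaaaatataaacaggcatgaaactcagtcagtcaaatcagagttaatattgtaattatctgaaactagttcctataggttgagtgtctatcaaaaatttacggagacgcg
ATG36, chrX:82977-83276, reverse strand: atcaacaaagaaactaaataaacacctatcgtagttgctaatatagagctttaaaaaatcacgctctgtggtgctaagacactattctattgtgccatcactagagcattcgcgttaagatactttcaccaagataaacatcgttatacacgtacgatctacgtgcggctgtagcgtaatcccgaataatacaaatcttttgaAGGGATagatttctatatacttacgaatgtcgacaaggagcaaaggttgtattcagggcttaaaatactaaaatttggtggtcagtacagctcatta
CPS1, chrX:97437-97736, forward strand: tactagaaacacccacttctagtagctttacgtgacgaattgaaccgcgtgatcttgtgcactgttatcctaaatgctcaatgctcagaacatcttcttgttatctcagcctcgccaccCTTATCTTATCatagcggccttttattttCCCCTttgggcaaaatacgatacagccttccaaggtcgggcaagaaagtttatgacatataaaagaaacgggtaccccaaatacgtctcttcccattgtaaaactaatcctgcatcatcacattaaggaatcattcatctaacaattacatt
PRC1, chrXIII:861622-861921, forward strand: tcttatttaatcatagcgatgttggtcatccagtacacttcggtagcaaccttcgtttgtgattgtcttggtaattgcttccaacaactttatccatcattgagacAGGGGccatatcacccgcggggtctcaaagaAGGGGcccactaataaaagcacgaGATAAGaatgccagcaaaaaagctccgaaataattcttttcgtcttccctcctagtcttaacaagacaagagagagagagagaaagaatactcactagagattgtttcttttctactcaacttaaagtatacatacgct
The ATG8 window held matches to AGGGG at 91 and 68 bases before the start codon, a GATAAG at 60, a reverse match to TGACTC at 230 and a pair of overlapping reverse matches to GCCGCC at 133 and 130. ATG34 held 1 reverse match to AGGGG at 187, and ATG36 held 1 AGGGAT at 97. CPS1 held a reverse AGGGG at 152 and reverse GATAAG matches at 181 and 176. PRC1 held AGGGG at 194 and 163 and GATAAG at 139. No matches of different motifs overlapped in the 39 promoters.

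Over the 39 promoters, AGGGG was found in 15 (38.5%), against 22.2% of the 6001 promoters of all coding genes. GATAAG was found in 17 (43.6%), against 14.7% of all promoters, and the 17 were those of 12 ATG genes and 5 hydrolases. AGGGAT was found in 5 (12.8%, against 9.23%), GCCGCC in 2 (5.13%, against 5.2%) and TGACTC in 4 (10.3%, against 7.77%). These are matches of letters in 1 window and were not tested as sites.

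At day 1, the deletions were set against WT. In set2Δ, 4 of 31 ATG genes were higher and 17 lower, beside 37.9% of all genes tested that were higher and 39.5% that were lower. The median log2 fold change of the ATG genes was -0.22, and all 7 hydrolases were lower, with a median log2 fold change of -1.03. In bre1Δ, 9 ATG genes were higher and 15 lower, beside 35.8% higher and 35.8% lower of all genes, with a median of -0.084 over the ATG genes, and 2 hydrolases were higher and 4 lower. These splits depend on the scaling. With library size only, the median of all genes was 0.35 in set2Δ (against -0.01 with TMM) and 0.32 in bre1Δ (against 0.02 with TMM). Then 16 ATG genes were higher and 3 lower in set2Δ, beside 3793 higher and 1327 lower of all 6320 genes. In bre1Δ 17 ATG genes were higher and 3 lower, beside 3606 and 1214 of all genes. With upper-quartile scaling 7 ATG genes were higher and 14 lower in set2Δ, beside 2785 and 2100 of all genes. The hydrolases of bre1Δ were then 3 higher and 2 lower with library size only.

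The widest changes of set2Δ at day 1 were in the hydrolases. CPS1 had 177, 163 and 172 CPM in set2Δ, against 706, 591 and 748 CPM in WT, a fold change of -1.997 ± 0.074 (edgeR, adjusted p = 1.92e-15). LAP4 had 126, 122 and 123 CPM in set2Δ, against 292, 324 and 370.3 CPM in WT, a fold change of -1.41 ± 0.066 (edgeR, adjusted p = 7.69e-14). PRB1 had 673, 626 and 652 CPM in set2Δ, against 1517, 1525 and 1773 CPM in WT, a fold change of -1.30 ± 0.074 (edgeR, adjusted p = 1.36e-12). In each of these genes the set2Δ libraries all lay below the WT libraries. APE3 (-1.03 ± 0.066; edgeR, adjusted p = 1.11e-11), PEP4 (-0.84 ± 0.060; edgeR, adjusted p = 6.93e-11) and ATG5 (-1.09 ± 0.082; edgeR, adjusted p = 1.31e-10) were lower too. The genes higher in set2Δ were ATG1 (0.44 ± 0.072), ATG2 (0.26 ± 0.056), ATG7 (0.25 ± 0.062) and ATG10 (0.74 ± 0.12; edgeR, adjusted p = 1.4e-05), and the largest adjusted p of the 4 was 0.00119, that of ATG7. ATG8 was lower (-0.34 ± 0.061; edgeR, adjusted p = 3.27e-05), a direction that turned to 0.02 with library size only.

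In bre1Δ at day 1, 35.8% of all 6320 genes tested were higher than in WT and 35.8% lower with TMM scaling. With library size only, 3606 of them were higher and 1214 lower. All 7 genes of selective autophagy were lower with TMM scaling, whereas 1 was higher and 2 were lower with library size only. ATG40, the receptor gene for the endoplasmic reticulum, was nearest the threshold (-0.14 ± 0.057; edgeR, adjusted p = 0.0384) and did not pass it in a fit of these 6 libraries with the replicate number as a block (edgeR, adjusted p = 0.0597) or without it (edgeR, adjusted p = 0.0917). ATG39 had 183, 177 and 179 CPM in bre1Δ, against 354, 318 and 332 CPM in WT, a fold change of -0.90 ± 0.053 (edgeR, adjusted p = 5.55e-12). ATG32 had 91.6, 89.8 and 92.5 CPM in bre1Δ, against 119, 122 and 132 CPM in WT, a fold change of -0.45 ± 0.052 (edgeR, adjusted p = 1.44e-07). ATG5 stood out on the other side, with 194, 175 and 212 CPM in bre1Δ, against 109.6, 89.2 and 103 CPM in WT, and was higher by 0.95 ± 0.078 (edgeR, adjusted p = 7.91e-10). ATG10 (1.09 ± 0.12; edgeR, adjusted p = 6.7e-08), ATG26 (0.61 ± 0.055; edgeR, adjusted p = 3.1e-09) and ATG11 (0.50 ± 0.048; edgeR, adjusted p = 8.93e-09) were higher as well. Among the hydrolases and vacuolar genes, PRC1 (-1.03 ± 0.070; edgeR, adjusted p = 4.83e-11), PEP4 (-0.46 ± 0.060; edgeR, adjusted p = 6.72e-07) and ATG15 (-0.62 ± 0.091; edgeR, adjusted p = 3.59e-06) were lower and PRB1 was higher (0.46 ± 0.072; edgeR, adjusted p = 7.62e-06). ATG8 was lower (-0.28 ± 0.061; edgeR, adjusted p = 0.000305), a fold change that became 0.01 with library size only. ATG1 did not pass the test (-0.035 ± 0.073; edgeR, adjusted p = 0.674), its bre1Δ and WT libraries overlapping, but it was 0.26 with library size only (edgeR, adjusted p = 0.00235).

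At day 4, set2Δ had 18 of 31 ATG genes higher than WT and 6 lower, beside 34.7% of all genes tested that were higher and 44.0% that were lower, and 1 hydrolase higher and 6 lower. The median log2 fold change was 0.23 over the ATG genes and -0.72 over the hydrolases, and -0.10 over all genes. In bre1Δ, 10 ATG genes were higher than in WT and 19 lower, beside 44.8% and 41.6% of all genes, with a median of -0.32, and 4 hydrolases were higher and 2 lower, with a median of 0.31, and 0.04 over all genes. With library size only, the median of all genes was 0.16 in set2Δ and 0.31 in bre1Δ. The splits of the ATG genes were then 25 higher and 3 lower in set2Δ and 12 higher and 13 lower in bre1Δ. Of all 6320 genes, 2980 were higher and 1933 lower in set2Δ, and 3401 and 2071 in bre1Δ. The hydrolases of bre1Δ were 5 higher and 1 lower with library size only and with upper-quartile scaling. With the latter, 3128 of all genes were higher and 2331 lower.

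**Figure D4:**
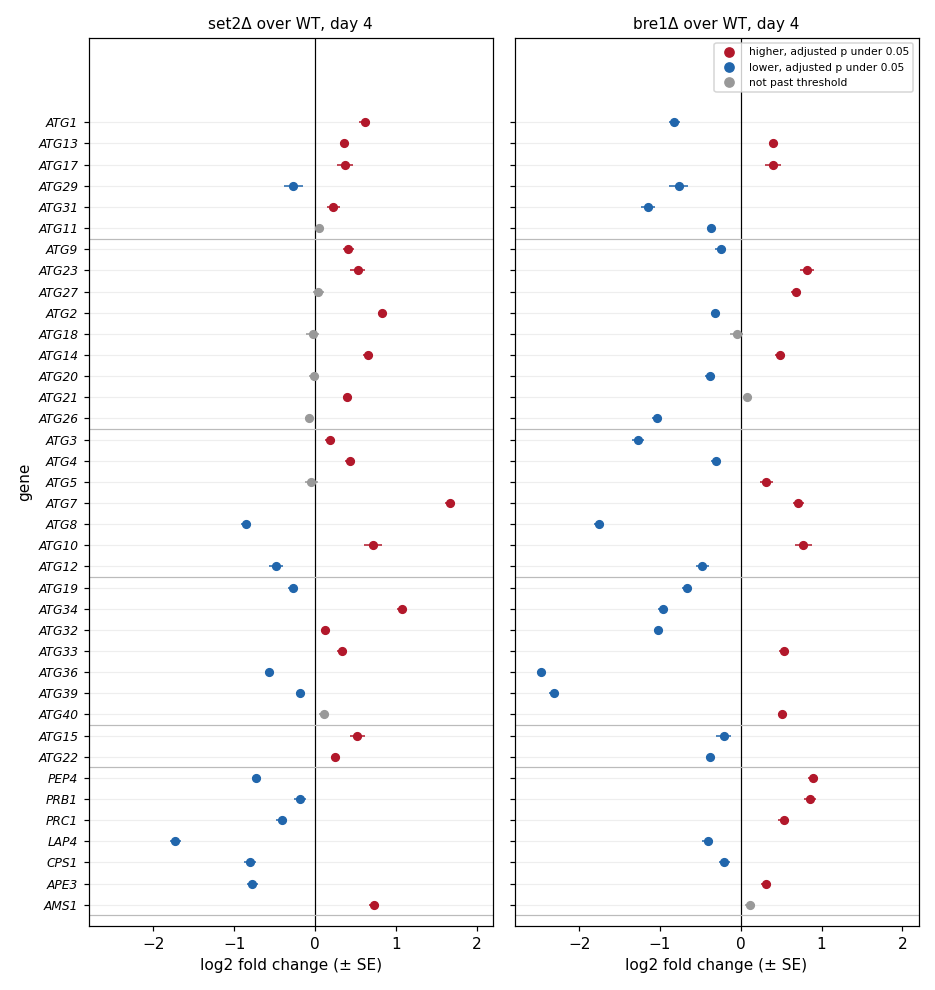
Log2 fold change at day 4 of set2Δ over WT (left panel) and of bre1Δ over WT (right panel) for the 38 genes tested, with SE bars from the fit, in rows grouped by role; red is higher and blue lower than WT at an adjusted p under 0.05, and grey did not pass. ATG7 stands farthest to the right in the set2Δ panel, at 1.67, and ATG36 farthest to the left in the bre1Δ panel, at -2.47; both panels use the same WT libraries.

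In set2Δ at day 4, ATG7 had 98.2, 102 and 105 CPM, against 34.7, 30.1 and 31.3 CPM in WT, and was higher by 1.67 ± 0.062 (edgeR, adjusted p = 9.56e-16). ATG34 had 387, 395 and 407 CPM in set2Δ, against 181, 193 and 193 CPM in WT, and was higher by 1.07 ± 0.054 (edgeR, adjusted p = 1.34e-13). Both sets of libraries were fully apart. ATG2 (0.83 ± 0.055; edgeR, adjusted p = 1.37e-11), ATG10 (0.72 ± 0.11; edgeR, adjusted p = 5.25e-06), ATG1 (0.62 ± 0.067; edgeR, adjusted p = 3.19e-08) and AMS1 (0.73 ± 0.062; edgeR, adjusted p = 5.92e-10) were higher too. LAP4 had 93.0, 83.1 and 84.9 CPM in set2Δ, against 292, 291 and 279 CPM in WT, a fold change of -1.73 ± 0.069 (edgeR, adjusted p = 2.87e-15). ATG8 had 533, 525 and 519.8 CPM in set2Δ, against 925, 962 and 976 CPM in WT, a fold change of -0.86 ± 0.061 (edgeR, adjusted p = 3.65e-11). CPS1 (-0.81 ± 0.073; edgeR, adjusted p = 1.9e-09), APE3 (-0.78 ± 0.066; edgeR, adjusted p = 7.32e-10) and PEP4 (-0.72 ± 0.061; edgeR, adjusted p = 5.38e-10) were lower. PRB1 was just past the threshold (-0.19 ± 0.072; edgeR, adjusted p = 0.023), and its adjusted p was 0.0723 without the first and 0.0543 without the second WT library, and 0.0679 without the second and 0.0856 without the third set2Δ library. Its sign turned with library size only, at 0.07.

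In bre1Δ at day 4, ATG36 had 69.8, 74.2 and 70.5 CPM, against 387, 403 and 400.4 CPM in WT, a fold change of -2.47 ± 0.047 (edgeR, adjusted p = 3.23e-20). ATG39 had 122, 135 and 129 CPM in bre1Δ, against 618, 654 and 649 CPM in WT, a fold change of -2.31 ± 0.055 (edgeR, adjusted p = 4.75e-19). ATG8 had 287, 273 and 288 CPM in bre1Δ, against 925, 962 and 976 CPM in WT, a fold change of -1.76 ± 0.062 (edgeR, adjusted p = 1.73e-16). Every bre1Δ library of these genes lay below every WT library. ATG3 (-1.27 ± 0.069; edgeR, adjusted p = 2.06e-13), ATG31 (-1.15 ± 0.085; edgeR, adjusted p = 4.98e-11) and ATG1 (-0.82 ± 0.068; edgeR, adjusted p = 2.73e-10) were lower too. PEP4 (0.89 ± 0.060; edgeR, adjusted p = 9.58e-12) and PRB1 (0.85 ± 0.073; edgeR, adjusted p = 4.47e-10) were higher, and so were ATG23 (0.82 ± 0.089), ATG10 (0.77 ± 0.11) and ATG7 (0.71 ± 0.063; edgeR, adjusted p = 7.13e-10). AMS1, ATG18 and ATG21 did not pass the test.

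The genes around the machinery were taken from 5 lists of 73 genes. PAI3, TFS1 and PBI2 encode cytosolic inhibitors of the proteases Pep4, Prc1 and Prb1. PAI3 had 732, 793 and 790.0 CPM in set2Δ at day 4 and 848, 772 and 807 at day 1, 75.6, 106 and 75.7 CPM in bre1Δ at day 4 and 330.3, 304 and 321 at day 1, and 370.0, 381 and 374 CPM in WT at day 4 and 445, 407 and 432 at day 1. The bre1Δ day 4 libraries were the lowest of all. PAI3 fell over time in bre1Δ (-1.90 ± 0.092; edgeR, adjusted p = 1.33e-13), the strain and day in which PEP4 was highest. Against WT at day 4 it was lower in bre1Δ, at -2.13 ± 0.092 (edgeR, adjusted p = 4.35e-15), and higher in set2Δ, at 1.04 ± 0.087 (edgeR, adjusted p = 5.47e-10).

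TFS1 had 331, 309 and 345 CPM in bre1Δ at day 4 and 518, 565 and 550.0 at day 1, 571, 473 and 452 CPM in set2Δ at day 4 and 802, 751 and 757 at day 1, and 833, 811 and 776 CPM in WT at day 4 and 768, 757 and 830.0 at day 1. It fell over time in bre1Δ (-0.73 ± 0.073; edgeR, adjusted p = 1.04e-08) and in set2Δ (-0.63 ± 0.072; edgeR, adjusted p = 1.27e-07). PBI2 had 626, 649 and 613 CPM in set2Δ at day 4 and 1246, 1223 and 1237 at day 1, 1006, 985 and 1024 CPM in bre1Δ at day 4 and 1238, 1209 and 1242 at day 1, and 632, 618 and 655 CPM in WT at day 4 and 1471, 1517 and 1302 at day 1. It fell in set2Δ (-0.97 ± 0.057; edgeR, adjusted p = 3.32e-12) and in WT (-1.17 ± 0.057; edgeR, adjusted p = 9.18e-14), and also in bre1Δ, where the change minus that of set2Δ was 0.68 ± 0.079 (edgeR, adjusted p = 1.46e-07). These are levels of messenger RNA, and neither inhibitor protein nor protease activity was measured.

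**Figure D5:**
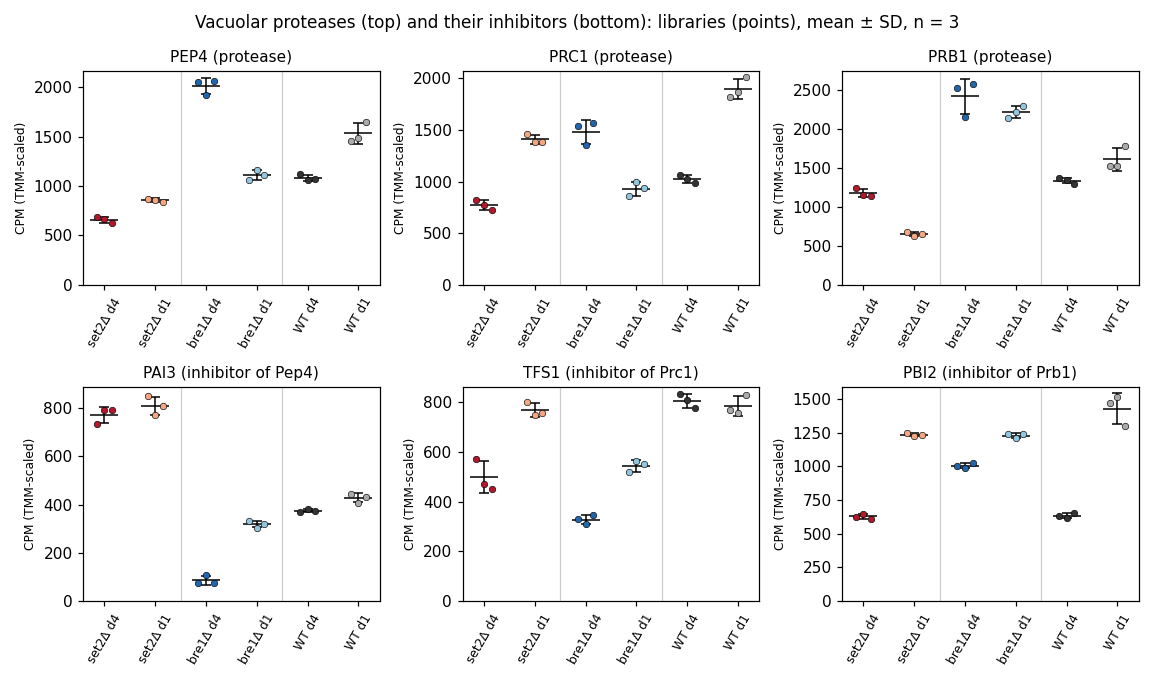
TMM-scaled CPM of the protease genes PEP4, PRC1 and PRB1 (top row) and of the genes of their inhibitors PAI3, TFS1 and PBI2 (bottom row) in each library, for set2Δ, bre1Δ and WT with day 4 left of day 1; points are libraries, bars mean ± SD (n = 3), and each axis starts at 0. PEP4 was highest and PAI3 lowest in bre1Δ at day 4.

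The list of transcription regulators of autophagy genes had 5 of 11 genes that rose and 3 that fell at day 4 in each strain. Among all genes tested, 34.3% rose and 37.3% fell in set2Δ, 37.9% and 38.4% in bre1Δ, and 37.2% and 40.5% in WT. GIS1 encodes a DNA-binding protein of the response to nutrient depletion. GIS1 had 422, 422 and 421 CPM in set2Δ at day 4 and 237, 239 and 236 at day 1, 182, 183 and 189 CPM in bre1Δ at day 4 and 176, 179 and 186 at day 1, and 605, 614 and 604 CPM in WT at day 4 and 294, 286 and 286 at day 1. It rose in set2Δ (0.83 ± 0.041; edgeR, adjusted p = 2.55e-13) and in WT (1.07 ± 0.041; edgeR, adjusted p = 1.97e-15), its bre1Δ libraries overlapped between the days, and at day 4 it was lower in bre1Δ than in WT (-1.72 ± 0.042; edgeR, adjusted p = 6.96e-19). MSN4, a stress activator gene, had 326, 312 and 332 CPM in bre1Δ at day 4 and 43.7, 56.9 and 54.1 at day 1, and rose by 2.64 ± 0.086 (edgeR, adjusted p = 5.39e-16). GAT1, an activator gene of the nitrogen response, had 686, 553 and 693 CPM in bre1Δ at day 4 and 46.2, 71.5 and 69.9 at day 1, and rose by 3.36 ± 0.17 (edgeR, adjusted p = 2.72e-13). The set2Δ and WT libraries had 60.4 to 106 CPM of GAT1.

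The list of vesicle nucleation, tethering and fusion had 12 of 20 genes that rose and 4 that fell in set2Δ, 5 and 10 in bre1Δ, and 3 and 15 in WT. For this list and those below, the shares of all genes tested that rose and fell were 34.3% and 37.3% in set2Δ. They were 37.9% and 38.4% in bre1Δ, and 37.2% and 40.5% in WT. VPS15, which encodes the regulatory subunit of the lipid kinase of autophagy, had 107, 116 and 118 CPM in set2Δ at day 4, against 20.6, 22.0 and 26.8 CPM in WT, and was higher by 2.30 ± 0.081 (edgeR, adjusted p = 4.41e-16). The list of TORC1, PKA and Snf1 signalling had 9 of 17 genes that rose and 3 that fell in set2Δ, 5 and 9 in bre1Δ, and 3 and 11 in WT. RIM15, the gene of a kinase that promotes entry into stationary phase, had 314, 306 and 303 CPM in set2Δ at day 4 and 153, 151 and 154 at day 1, and rose by 1.01 ± 0.049 (edgeR, adjusted p = 1.57e-13). The proton pump of the vacuole had 6 of 15 genes that rose and 4 that fell in set2Δ, 6 and 3 in bre1Δ, and 5 and 8 in WT. Of the 10 other vacuolar enzymes, inhibitors and sorting receptor, 5 rose and 3 fell in set2Δ, 2 and 6 in bre1Δ, and 2 and 6 in WT.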

How the data were processed

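Raw counts per gene and FPKM in 18 libraries were used as deposited. Per the submitters' processing notes the authors used FastQC 0.11.8, cutadapt 2.6, STAR 2.7.0b, HTSeq 2.0.2, R 4.2.0, DESeq2 1.36.0 and the sacCer3 build, and the annotation and the strand setting of the counting are not given in the sources used here. The deposited FPKM values follow from the counts and a gene length, and for 38 of the 39 genes that length differed by at most 0.074% from the length in the R64 reference.

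Tests were run on the counts in R 4.3.3 with edgeR 4.0.16. Genes were filtered by filterByExpr on the 6 groups (6320 tested, 517 not) and scaled by TMM (factors 0.857 to 1.14). A model with a mean per group and the two-sided quasi-likelihood F test gave 10 comparisons, with Benjamini-Hochberg adjustment over all genes tested and a threshold of 0.05. All groups shared 1 estimate of the spread (common dispersion 0.00387, or a coefficient of variation between replicates of 6.22%). The groups were not equally tight. The chi-square per gene between replicates, which grows as their counts differ more, was highest in WT of day 1 (28.6 to 41.0). Replicates of bre1Δ from day 1 gave 14.0 to 25.0, and those from day 4 gave 1.52 to 14.7. In WT of day 4 the range was 4.27 to 8.94. For set2Δ it was 4.77 to 6.72 (day 4) and 5.56 to 8.28 (day 1). SE and p-values of comparisons that use WT of day 1 may therefore be too small. The replicate number was not a block. Deviations of same-numbered libraries correlated over 0.1 in all 3 pairs of 1 of the 15 pairings of groups, bre1Δ day 1 with WT day 1 (r 0.129 to 0.137), and the labels do not say what the number marks, so a blocked fit of those 6 libraries was added after the data were seen. On simulated counts of 5929 genes for day 4 against day 1 in WT, 97% of genes changed 1.5-fold, 98.5% of those changed 2-fold and 100% of those changed 4-fold were recovered, with 12 false calls of 209. For set2Δ minus WT day effects these were 88.1%, 98.5% and 100%, with 7 false calls of 198. The simulation changed 67, 67 and 66 genes by 1.5, 2 and 4-fold, only in WT at day 4. It used the same spread for every gene and group. In the data, 77.7% of all genes tested were called for WT and 72.7% for set2Δ minus WT. The simulated rates therefore check the fit and cannot be read as error rates of these comparisons.

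Log2 fold changes are printed for ATG1, ATG8, PEP4 and PRB1 in every comparison. They are also printed for up to 5 genes with the largest change in each direction in comparisons of 2 groups, among those past the threshold whose libraries do not overlap, and for up to 3 in comparisons of day effects. Of each list of other pathway genes, examples come from the 3 with the smallest p values in a comparison. Earlier results of these data were known when the genes and lists were chosen. The rule for the 39 genes itself uses no measured value, and the lists were drawn from general knowledge of yeast biology. Alternatives were DESeq2 1.42.0, other scalings, no filter, the compared groups only, a replicate block, limma 3.58.1 on log2(FPKM + 1) and log2(FPKM + 0.1), and each library left out in turn.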

Additional observations from a re-analysis of the deposited data

Results flagged for a closer look

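The results below were singled out because a test of the difference itself, the interaction term of edgeR's model, found that the change from day 1 to day 4 differed between strains. Groups of 3 libraries are too small for a formal test of single outlying libraries. The libraries of bre1Δ at day 4 were unevenly alike. Replicates 1 and 3 differed by a chi-square per gene of 1.52, while replicate 2 differed from them by 10.3 and 14.7. Whether replicates 1 and 3 came from separate cultures is not known, so the spread of this group may be understated. The cause was not tested.

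The day effect of set2Δ differed from that of WT in 31 of the 38 genes tested (81.6%), beside 72.7% of all genes. The difference, set2Δ minus WT on the log2 scale, was 1.71 for AMS1, 1.42 for ATG7, 1.42 for ATG34 and 1.12 for PRB1. It was -0.52 for ATG8, -0.46 for ATG12 and -0.45 for ATG36.

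The day effect of bre1Δ differed from that of WT in 30 of the 38 (78.9%). This is near the share of all genes, 76.9%, so the count does not set these genes apart. The difference, bre1Δ minus WT, was 1.56 for PRC1, 1.36 for PEP4, 1.05 for ATG27 and 0.39 for PRB1. It was -2.23 for ATG36, -1.65 for ATG26, -1.47 for ATG8 and -0.79 for ATG1.

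The day effects of bre1Δ and set2Δ differed from each other in 33 of the 38 (86.8%), beside 71.8% of all genes. The difference, bre1Δ minus set2Δ, was 1.55 for PRC1, 1.24 for PEP4 and 0.47 for ATG27. It was -2.05 for ATG34, -1.78 for ATG36, -1.74 for CPS1, -0.96 for ATG1, -0.96 for ATG8 and -0.73 for PRB1.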

How the results depend on the processing

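Counts of genes past the threshold stayed within 1.5 times the reported count in 167 of 182 values from other settings and in all 156 values with a library left out. For set2Δ against WT at day 1, 16 genes were higher and 9 lower with library size only and in both limma fits on FPKM, and 7 were higher with upper-quartile scaling. For bre1Δ against WT at day 1, 20 were higher and 5 lower with library size only and in both FPKM fits. Of all 6320 genes at day 1, library size only gave 3793 higher and 1327 lower in set2Δ, and 3606 and 1214 in bre1Δ. Upper-quartile scaling gave 2785 higher in set2Δ. For bre1Δ against WT at day 4, 13 were lower in both FPKM fits. Signs turned in a few single genes. For set2Δ against WT, ATG8 at day 1 was 0.024 with library size only and 0.026 in both FPKM fits, and PRB1 at day 4 was 0.067 in all of these. For bre1Δ against WT at day 1, ATG1 was 0.26 with library size only, 0.015 with upper-quartile scaling, 0.25 and 0.26 in the FPKM fits and -0.12 to 0.047 with a library left out, the upper value without the first WT library, and ATG8 was 0.014, 0.015 and 0.015 with library size only and in the FPKM fits. For PEP4 the set2Δ minus WT day effect was -0.000797 and -0.000986 in the FPKM fits. The cause of these turns was not tested. The replicate block over all libraries gave 26 genes that rose and 6 that fell in set2Δ and 9 and 24 in bre1Δ, and changed no count by over 1.5 times. For bre1Δ against WT at day 1, where same-numbered libraries deviated together, it gave 11 genes higher and 18 lower, and so did the blocked fit of those 6 libraries, against 11 and 19 without it. ATG40 lost its call in that fit, and ATG31 lost its call in the blocked fit over all libraries (edgeR, adjusted p = 0.0515). ATG16 had too few counts for any statement, and set2Δ at day 4 has the fewest counts per library.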
